A study of Mus musculus with 96 samples.

Results

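Fkbp5 and 3 gene models annotated in its introns, AC154912.1, AC154912.3 and AC154912.5, were followed through every library of a study of mouse microglia after abdominal surgery. They are 4 of the 54532 gene models counted in the study. They were picked by identifier, because Fkbp5 and the intronic models differed between surgery and control at 6 h in these same libraries, so their values in that comparison are a description and carry no test. Microglia are the brain's own macrophages. They were sorted from wild-type mice as Fcrls+/CD11b+/Ly6C- cells, and 1000 cells were lysed for each Smart-seq2 library. The mice were young (3 to 5 months) or old (20 to 22 months), had abdominal surgery or served as controls, and were sampled at 6 h or 48 h. What the controls underwent is not stated in the labels. Each of the 48 animals gave a hemisphere and a hippocampus library, which makes 96 libraries in 16 groups. Every young group held 4 animals. The old groups held 8 controls at 6 h, 8 controls at 48 h, 7 surgery animals at 6 h and 9 at 48 h.

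Fkbp5 encodes FKBP51, a co-chaperone that joins the Hsp90 complex holding the glucocorticoid receptor and lowers the receptor's affinity for its hormone. The activated receptor in turn drives transcription of Fkbp5, much of it through response elements in its introns, so the gene forms a short negative feedback loop of the stress response. Transcription of Fkbp5 is therefore widely read as a sign of glucocorticoid action in blood and brain cells. The 3 intronic models have no function known from the labels or the annotation.

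All 4 members lie on chromosome 17 of mm10. Fkbp5 (ENSMUSG00000024222, protein coding, minus strand) spans chr17:28399094-28517527 and has 15 annotated transcripts with 9468 exonic bases. Its reference transcript has 11 exons and starts at base 28486149. AC154912.1 (ENSMUSG00000117084) is an antisense gene of 3 exons on the plus strand at chr17:28446500-28456457, with 2191 exonic bases. AC154912.3 (ENSMUSG00000117294), on the minus strand at chr17:28457484-28461095, is a single exon of 3612 bases that the annotation lists as still to be experimentally checked. Both lie in intron 1 of that transcript (chr17:28441054-28485951). AC154912.5 (ENSMUSG00000117313), a sense intronic model of 1708 bases on the minus strand, lies in intron 5 at chr17:28424723-28426430. The 3 models share 0 bases with Fkbp5 exons. No source used here says whether the counter used strand, so reads of AC154912.1 and unspliced Fkbp5 reads from the opposite strand cannot be told apart. The 2 sense models share the strand of Fkbp5, so their reads cannot be told from unspliced Fkbp5 reads under any strand setting. A further small model, Gm22146 (chr17:28446861-28447148), overlaps the end of the first exon of AC154912.1.

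Sequences of the locus are shown because the members were higher in the same groups at 6 h and glucocorticoid response elements are known in this gene. The Fkbp5 promoter is the 250 bases before the RefSeq gene start (GRCm38.p6, chr17:28486150-28486399, minus strand), with its 3 GC boxes (GGGCGG) in capitals. The stretch of AC154912.5 (GENCODE M21 on GRCm38, chr17:28426001-28426250, minus strand) and that of AC154912.3 (chr17:28460656-28460755, minus strand) have half-sites of the glucocorticoid response element (AGAACA or its reverse complement TGTTCT) in capitals. For AC154912.1 the junction of exons 1 and 2 is shown with 30 bases on each side (chr17:28446840-28446869 and chr17:28451979-28452008, plus strand), exon 2 in capitals, since a spliced read there cannot come from unspliced Fkbp5 RNA.
Fkbp5 promoter: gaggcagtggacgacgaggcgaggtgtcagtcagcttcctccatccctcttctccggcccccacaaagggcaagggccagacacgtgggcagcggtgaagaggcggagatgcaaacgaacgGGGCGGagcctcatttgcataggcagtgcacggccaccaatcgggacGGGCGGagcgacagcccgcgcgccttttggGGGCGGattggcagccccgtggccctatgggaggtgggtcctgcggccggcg
AC154912.5: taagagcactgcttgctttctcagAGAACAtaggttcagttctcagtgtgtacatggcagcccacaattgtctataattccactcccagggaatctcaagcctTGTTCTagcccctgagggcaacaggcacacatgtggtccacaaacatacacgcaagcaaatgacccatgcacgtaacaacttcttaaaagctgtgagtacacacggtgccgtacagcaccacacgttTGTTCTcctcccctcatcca
AC154912.3: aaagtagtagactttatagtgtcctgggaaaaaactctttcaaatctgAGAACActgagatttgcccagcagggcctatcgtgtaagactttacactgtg
AC154912.1: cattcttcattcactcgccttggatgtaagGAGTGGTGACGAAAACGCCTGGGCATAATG

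Neither the promoter nor any of the 3 models held the full element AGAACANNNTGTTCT or the relaxed form GNACANNNTGTNC on either strand. The full element stood in 0.00913% and the relaxed form in 0.387% of 32851 RefSeq promoter windows of 250 bases. In the first 1708 to 3612 bases of GENCODE transcripts at least as long, matched to the lengths of the models, the full element stood in 0.0387% to 0.0599% and the relaxed form in 3.69% to 8.07%. Half-sites, which the full element contains, numbered 5 in AC154912.3, 4 in AC154912.5 and 0 in AC154912.1 and in the promoter. At least 1 half-site stood in 94.8%, 75.1% and 83.1% of transcript windows of those 3 lengths, and in 16.1% of promoter windows. The 3 GC boxes of the promoter compare with 32.7% of promoters that hold at least 1. The promoter also held 1 E-box (CACGTG), a motif found in 6.02% of promoters. These matches describe letters only, and the rest of the Fkbp5 introns was not searched.

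Library totals ran from 1874168 to 3778939 estimated counts, with a median of 2703893. The largest non-coding gene models, 4 in number, took 21.1% to 40.9% of a library. The members rested on few counts. Fkbp5 had 13 to 289 counts a library with a median of 46.5. AC154912.1 had a median of 17, AC154912.3 of 9 and AC154912.5 of 7, and both of the last 2 were at 0 in their lowest library. All 6 microglial markers checked (P2ry12, Tmem119, Cx3cr1, Csf1r, Fcrls and Sall1) were above 0 at the median, and summed to 2150 to 6990 CPM (counts relative to the library total, after TMM scaling). The 4 neutrophil and the 4 erythrocyte markers had medians of 0. Summed neutrophil markers nonetheless reached 150 CPM in 1 library of old surgery hemisphere at 6 h, where the group median was 0. Summed erythrocyte markers reached 3.18 CPM. Border macrophage markers summed to 0.267 to 14.3 CPM and choroid plexus markers to 3.95 to 1210 CPM. In 6 libraries of the 6 h groups, called stepped here, the low values did not run in steps of 1. These were old hemisphere control 7 and surgery animal 6, old hippocampus surgery animals 5 and 6, and young hippocampus controls 1 and 4. The members' log2 fold changes at 6 h, the age difference of the ratio and the correlations between regions were also computed without these libraries.

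Fkbp5 was low in controls at 6 h and several-fold higher after surgery in both regions and at both ages. In young hemisphere controls at 6 h, Fkbp5 read 9.96, 21.6, 15.7 and 28.2 CPM. After surgery the 4 young hemisphere libraries read 82.4, 66.8, 39.9 and 32.5 CPM. Every surgery library lay above every control library, with the lowest surgery animal close to the highest control. The log2 fold change was 1.54 ± 0.32 (SE), a 2.91-fold difference. In old hemisphere, controls ran from 8.23 to 15.8 CPM with a median of 12.1, and surgery libraries from 32.4 to 89.2 with a median of 66.8. All 7 surgery libraries were again above all 8 controls, and the log2 fold change was 2.39 ± 0.24, or 5.24-fold.

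The hippocampus gave the same picture. Young hippocampus controls read 19.1, 10.4, 15.7 and 10.1 CPM of Fkbp5 at 6 h, the first and last from stepped libraries. Their surgery counterparts read 101.6, 64.5, 43.7 and 30.6 CPM. No library of either group fell into the range of the other, and the log2 fold change was 2.11 ± 0.36 (4.33-fold). Old hippocampus controls ran from 3.9 to 17 CPM with a median of 12.1, against 40.3 to 65.6 with a median of 54.5 after surgery. These ranges did not overlap either (log2 fold change 2.06 ± 0.26, 4.17-fold). In bulk libraries, fewer cells with the transcript and less transcript per cell cannot be told apart. Summed microglial markers overlapped between surgery and control in each of these 4 comparisons, as did the summed markers of the 11 other cell types. In old hippocampus 0 of 6 microglial markers had a log2 fold change above 0 (median -0.325, 0 called). In young hemisphere, old hemisphere and young hippocampus 2, 3 and 2 of 6 were above 0. Their part in the members' differences was not tested.

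**Figure D1:**
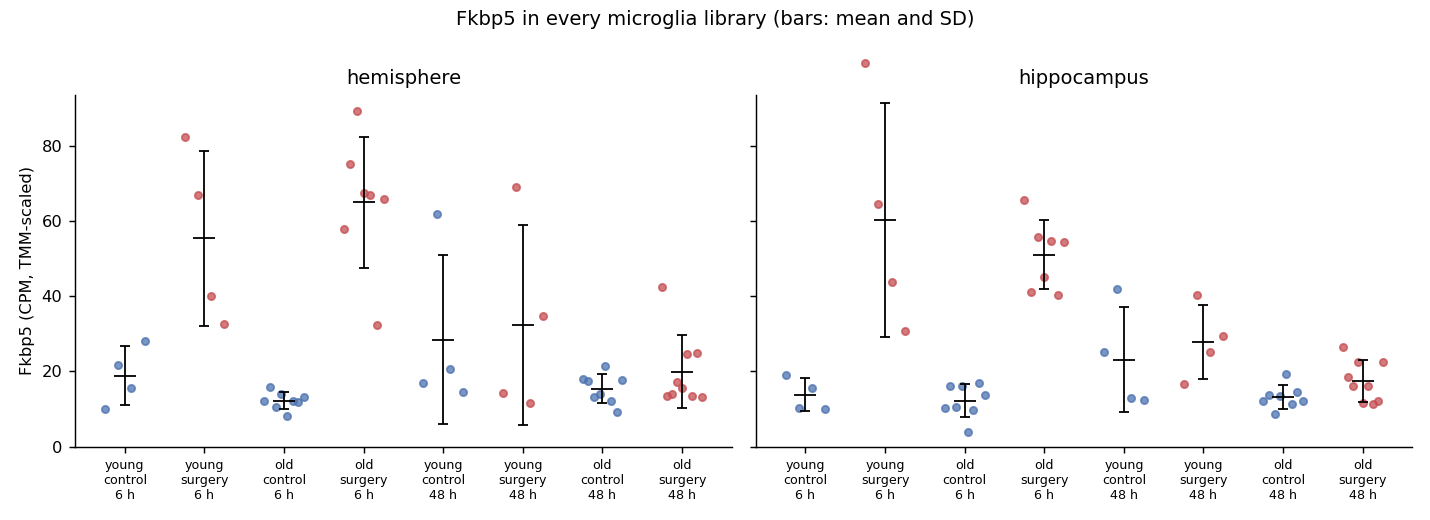
Fkbp5 in each library (points, CPM after TMM scaling, linear axis) by age, treatment and time, with hemisphere left and hippocampus right; bars give the mean and SD of 4 to 9 animals. The 4 surgery groups at 6 h have means of 51 to 64.9 CPM, and 1 young control and 1 young surgery animal at 48 h stand at 61.9 and 69.0 CPM in hemisphere.

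The antisense model AC154912.1 had the smallest 6 h difference of the 4 members in old hemisphere. Young hemisphere controls read 5.36, 4.7, 3.77 and 3.71 CPM, and young hemisphere surgery libraries 18.1, 13.1, 17.8 and 10.3 CPM. These did not overlap, and the log2 fold change of AC154912.1 was 1.75 ± 0.31. In old hemisphere it ran from 3.22 to 8.73 CPM in controls (median 5.67) and from 11.4 to 19.7 after surgery (median 14.0), a log2 fold change of 1.20 ± 0.22. In young hippocampus, controls read 6.79, 4.51, 6.29 and 8.11 CPM, and surgery libraries 27, 11.7, 15 and 7.9. The lowest of those surgery libraries lay inside the control range (log2 fold change 1.24 ± 0.34). Old hippocampus went from 3.9 to 8.98 CPM in controls (median 5.14) to 8.6 to 17.2 after surgery (median 12.9), with 6 of 7 surgery libraries above all controls and a log2 fold change of 1.25 ± 0.25.

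AC154912.3, the sense model nearest to the start of the reference transcript, was separated between surgery and control in all 4 comparisons at 6 h. Its young hemisphere controls read 2.68, 1.88, 2.2 and 0.928 CPM, against 9.67, 7.27, 9.69 and 9.32 after surgery. The surgery libraries were tightly grouped, and the log2 fold change was 2.21 ± 0.41. Old hemisphere controls ran from 0.811 to 3.22 CPM (median 2.65) and surgery libraries from 7.34 to 18.9 (median 11), a log2 fold change of 2.22 ± 0.29. Young hippocampus controls read 5.87, 3.16, 1.89 and 3.85 CPM, and surgery libraries 14.8, 8.94, 8.81 and 9.54. One surgery animal, number 1, stood above the other 3, and the log2 fold change was 1.48 ± 0.45. Old hippocampus ran from 0.39 to 5.14 CPM in controls (median 3.17) and from 6.33 to 18 after surgery (median 8.6), a log2 fold change of 1.68 ± 0.34.

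AC154912.5, in intron 5, was the member with the lowest counts and the widest errors. Young hemisphere controls read 1.92, 2.82, 1.88 and 1.24 CPM, and surgery libraries 10.1, 6.23, 5.42 and 5.14. They did not overlap (log2 fold change 1.77 ± 0.57). In old hemisphere, controls ran from 0 to 2.77 CPM (median 1.84) and surgery libraries from 0.667 to 11 (median 7.92). Of the 7 surgery libraries 6 were above all controls, and the log2 fold change was 2.0 ± 0.42. The hippocampus showed smaller differences, with overlap at both ages. Its young controls read 3.49, 3.16, 2.2 and 3.65 CPM against 8.2, 3.79, 5.87 and 1.97 after surgery (log2 fold change 0.65 ± 0.46). Its old controls ran from 1.2 to 3.53 CPM (median 2.48) and old surgery libraries from 1.27 to 7.89 (median 4.59), a log2 fold change of 0.92 ± 0.35.

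**Figure D2:**
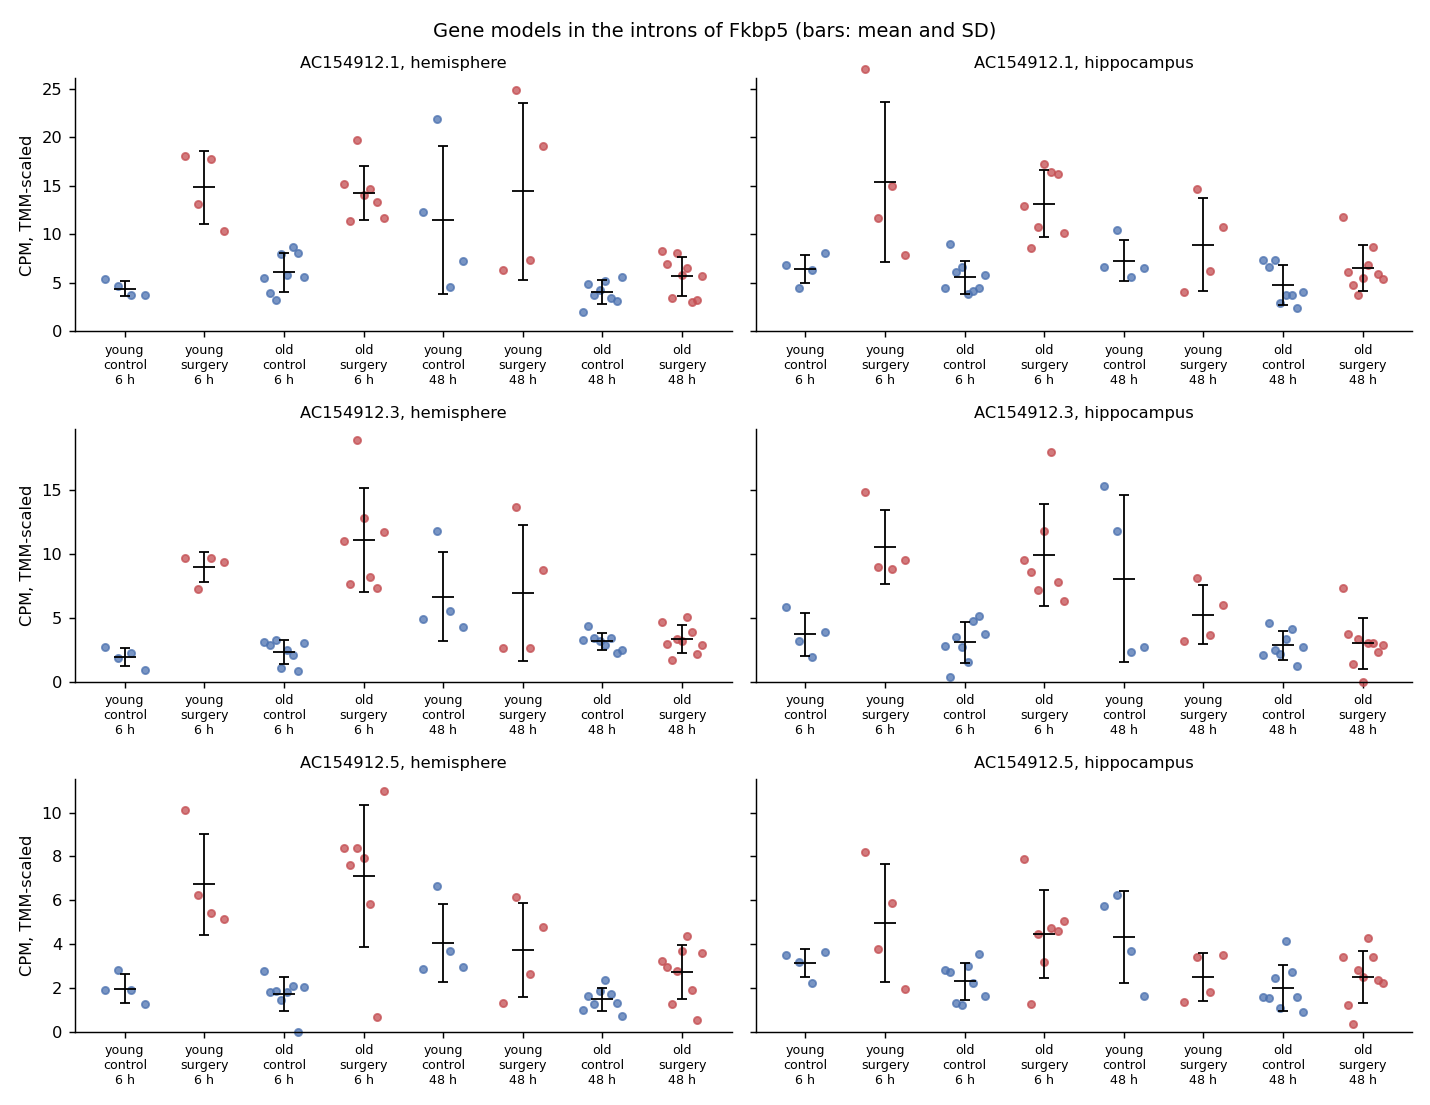
AC154912.1, AC154912.3 and AC154912.5 in each library (points, CPM after TMM scaling) by group, hemisphere left and hippocampus right, with the mean and SD as bars. In hemisphere at 6 h the surgery means of the 3 models are 14.8, 8.98 and 6.72 CPM in young animals, against 4.39, 1.92 and 1.96 in controls.

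Counted together at 6 h, edgeR's quasi-likelihood test with Benjamini-Hochberg (BH) adjustment placed 2 of 4 members higher after surgery in young hemisphere, where 0.0549% of the gene models tested were higher. It placed 4 of 4 in old hemisphere (0.259% of all tested), 1 of 4 in young hippocampus (0.0365%) and 3 of 4 in old hippocampus (0.0803%). Since the members were chosen from this comparison, these counts describe the choice and nothing is read from them. Every surgery library lay above every control library for 4, 3, 2 and 2 members in the same order, and for 1.72%, 0.212%, 2.3% and 0.117% of all gene models tested. The difference between the old and the young log2 effect was 0.85 ± 0.39 for Fkbp5 in hemisphere and -0.05 ± 0.43 in hippocampus, again as a description. Under the other processing settings tried, which included leaving out those 6 libraries, the 6 h log2 fold change of Fkbp5 ran in hemisphere from 1.28 to 1.81 in young and from 2.10 to 2.50 in old animals, and in hippocampus from 1.74 to 2.33 in young and from 1.77 to 2.14 in old animals.

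Levels per kilobase of exon were also compared. The length taken for Fkbp5 was the 9468 exonic bases of its 15 transcripts together, not that of a single transcript. At 6 h Fkbp5 had group means of 1.29 to 1.99 CPM per kilobase in controls and 5.39 to 6.85 after surgery. AC154912.1 had 2.0 to 2.93 in controls and 6.01 to 7.03 after surgery. In young hemisphere controls it was level with Fkbp5 (2.0 and 1.99), and in the other control groups it was above. After surgery it was below Fkbp5 in old hemisphere (6.52 against 6.85) and above it in the other groups. AC154912.3 ran from 0.532 to 1.02 in controls and from 2.49 to 3.07 after surgery, and AC154912.5 from 1.01 to 1.83 and from 2.61 to 4.17.

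Other gene models near Fkbp5 were compared at the same time. Besides the members, 24 annotated models overlap Fkbp5 or lie within 200 kb of it, of which 10 or 11 passed the filter on low counts at 6 h. None of these neighbours was called at 6 h (0 of 10 and 0 of 11 in each comparison of a region). Their median log2 fold change was 0.03 in young and 0.33 in old hemisphere, and -0.03 in young and 0.005 in old hippocampus, beside medians over all genes tested of 0.004, -0.02, -0.02 and 0.02. The nearest upstream neighbour with enough counts, the lincRNA E230001N04Rik (chr17:28522720-28525398, plus strand), was singled out after its values were seen. It lies just beyond the longest annotated Fkbp5 transcripts. Its log2 fold changes at 6 h were 0.71 ± 0.35, 0.90 ± 0.26, 1.87 ± 0.49 and 0.82 ± 0.36 in young and old hemisphere and then young and old hippocampus, with edgeR BH values of 1.0, 0.16, 0.286 and 0.557.

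**Figure D3:**
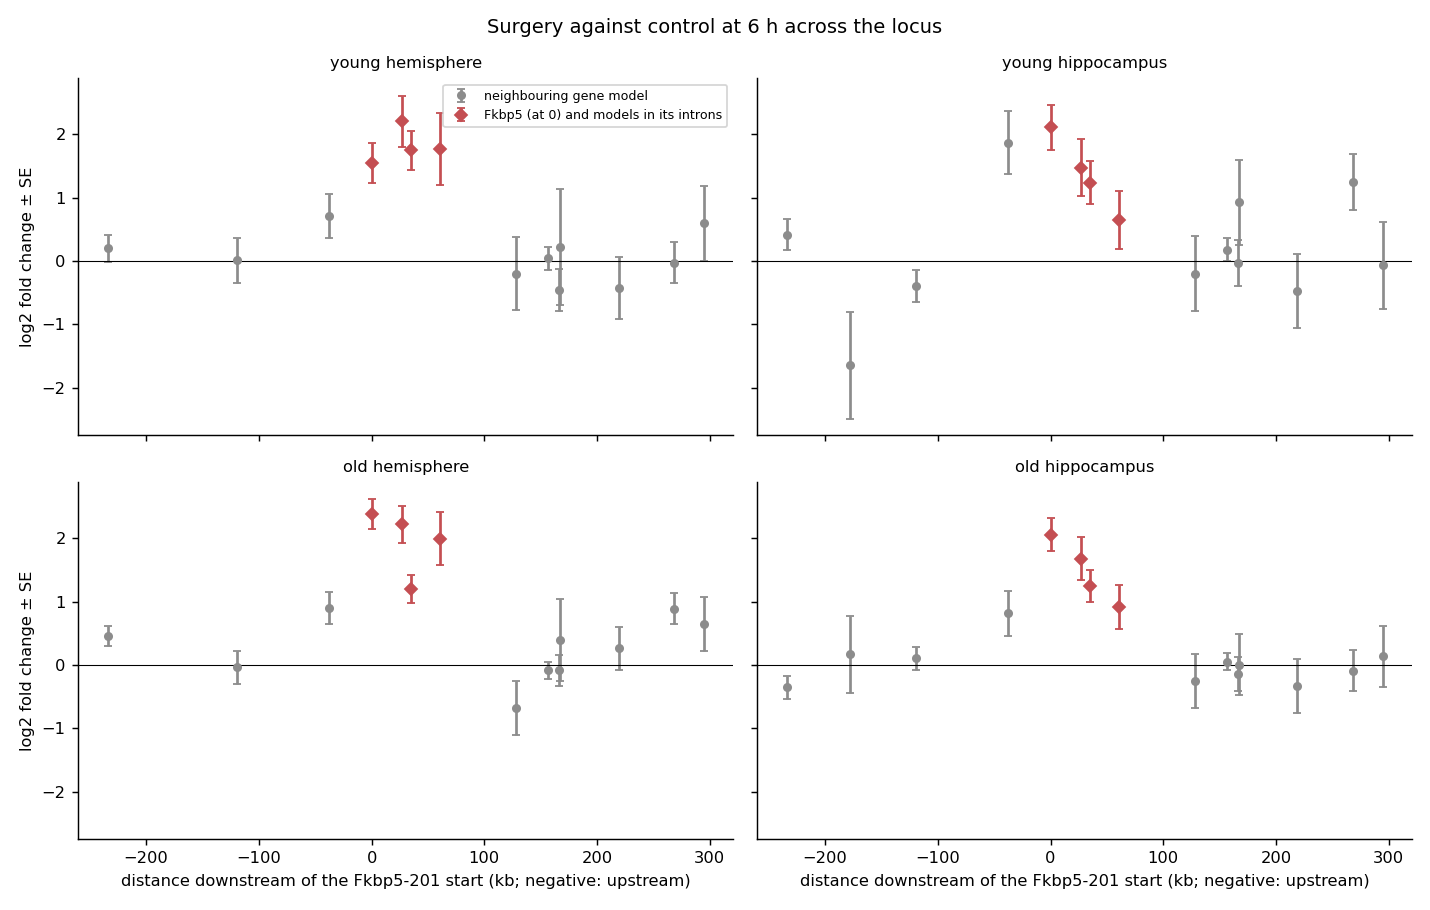
Log2 fold change of surgery against control at 6 h (± SE) of each tested gene model by the distance of its midpoint from the start of the reference transcript in kb, with positive values downstream; red diamonds are Fkbp5 (drawn at 0) and its intronic models, grey circles other models within 200 kb of the gene. The red points run from 0.65 to 2.39, and the neighbour at -37.91 kb, E230001N04Rik, from 0.71 to 1.87.

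The ratio of intronic to Fkbp5 counts does not depend on scaling between libraries. It is the summed count of the 3 models divided by the Fkbp5 count of the same library. At 6 h after surgery its group means were 0.611 ± 0.214 (SD, n = 4) in young and 0.516 ± 0.101 (n = 7) in old hemisphere, and 0.546 ± 0.138 (n = 4) in young and 0.55 ± 0.155 (n = 7) in old hippocampus. The matching control means were 0.536 ± 0.334, 0.859 ± 0.212, 1.02 ± 0.379 and 1.04 ± 0.479. In 3 of 4 pairs of groups the control mean was the larger, and young hemisphere was the exception. Old and young controls were compared by an exact two-sided permutation test over 495 splits, with a smallest possible p of 0.00202. The controls of 6 h are also 1 arm of the comparison that chose the members, and those of 48 h are not. At 6 h in hemisphere the old mean of 0.859 stood above the young mean of 0.536 (exact p = 0.0606, BH over 4 tests 0.121). At 48 h in hemisphere the old mean, 0.586 ± 0.13, was below the young mean, 0.878 ± 0.265 (exact p = 0.0283, BH 0.113). Hippocampus ratios of old and young controls were close at 6 h (1.04 and 1.02, exact p = 0.978) and at 48 h (0.774 and 0.885, exact p = 0.56). None of the 4 passed the threshold of 0.05 after adjustment.

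By 48 h no difference between surgery and control was called for any member. Young hemisphere controls read 16.8, 61.9, 20.7 and 14.4 CPM of Fkbp5, and surgery libraries 14.2, 69.0, 11.6 and 34.7. Control and surgery ranges were nearly the same, each with an animal numbered 2 at the top. The log2 fold change was 0.20 ± 0.47, with a 95% interval from -0.76 to 1.16. Old hemisphere controls ran from 9.27 to 21.4 CPM (median 15.7) and surgery libraries from 13.3 to 42.5 (median 15.7). The medians were equal, and 3 of 9 surgery libraries lay above all controls (log2 fold change 0.38 ± 0.34).

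In hippocampus at 48 h, young controls read 25.1, 42, 12.9 and 12.5 CPM of Fkbp5 and young surgery libraries 16.6, 40.2, 25.1 and 29.4. All surgery libraries fell within the control range, and the log2 fold change was 0.27 ± 0.34 (95% interval -0.43 to 0.97). Old hippocampus controls ran from 8.75 to 19.4 CPM (median 12.8) and surgery libraries from 11.3 to 26.5 (median 16.2), a log2 fold change of 0.40 ± 0.25 with a 95% interval from -0.11 to 0.91. The 4 point estimates were above 0, and each interval held 0. The upper bounds of the intervals, 1.16, 1.07, 0.97 and 0.91, do not exclude a difference of up to about 1 on the log2 scale.

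The intronic models were at low levels at 48 h too. In hemisphere their log2 fold changes of surgery against control ran from -0.11 (AC154912.5, young) to 0.87 ± 0.38 (AC154912.5, old, edgeR BH 0.834). In hippocampus they ran from -0.76 (AC154912.5, young) to 0.46 (AC154912.1, old). The edgeR test called 0 of 4 members in each of these 4 comparisons, where 0.0% of the 11985 to 12250 gene models tested were called. Unadjusted p-values under 0.05 were found for 440, 718, 731 and 432 models, and DESeq2 called 3, 1, 0 and 0, in the order young hemisphere, old hemisphere, young hippocampus, old hippocampus. The old and young surgery effects at 48 h differed by 0.17 ± 0.58 for Fkbp5 in hemisphere and 0.13 ± 0.42 in hippocampus (edgeR BH 0.996 and 0.987). In young hemisphere at 48 h the choroid plexus markers did not overlap between the groups, at 29 to 278 CPM in controls and 6.78 to 17.5 CPM after surgery, and their part in these values was not tested.

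Ordered by mean level, the 4 surgery groups at 6 h came first. Old hemisphere stood at 64.9 ± 17.4 CPM (SD), young hippocampus at 60.1 ± 31, young hemisphere at 55.4 ± 23.3 and old hippocampus at 51 ± 9.21. The 4 young groups at 48 h followed, from 32.4 ± 26.5 CPM in surgery hemisphere to 23.1 ± 13.9 in control hippocampus. The remaining groups had means between 12.2 and 19.9 CPM, with both old control groups at 6 h lowest. Of the 15 pairs of neighbours in this order, 0 differed by more than the larger of their SDs, and all 15 overlapped in range.

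Age was compared among controls. The choice of members did not use this contrast, although it used the 6 h libraries, each within its own age. Old controls had lower Fkbp5 means than young ones in all 4 pairs of groups, and none of the differences passed the test. In hemisphere at 6 h the log2 difference was -0.63 ± 0.28 (12.2 ± 2.27 CPM in 8 old against 18.9 ± 7.82 in 4 young; edgeR BH 0.678), and in hippocampus at 6 h it was -0.19 ± 0.31. In hemisphere at 48 h it was -0.88 ± 0.41 (15.4 ± 3.9 against 28.5 ± 22.4 CPM; edgeR BH 0.735), and in hippocampus at 48 h -0.84 ± 0.30 (13.2 ± 3.07 against 23.1 ± 13.9; edgeR BH 0.452). The edgeR test called 0 of 4 members in each, where 0.0784%, 0.0584%, 0.0898% and 0.0834% of all gene models were called, in that order.

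At 48 h all 4 members had lower means in old than in young controls in both regions. AC154912.1 in hemisphere had a log2 difference of -1.51 ± 0.39 (4.03 ± 1.23 against 11.5 ± 7.65 CPM; edgeR BH 0.183). For AC154912.5 the 8 old hemisphere controls, at 0.705 to 2.37 CPM, all lay below the young ones at 2.87, 6.66, 3.68 and 2.95 CPM (log2 difference -1.42 ± 0.44, edgeR BH 0.348). AC154912.3 in hippocampus differed by -1.56 ± 0.49, with 2 of its 4 young controls, at 15.3 and 11.8 CPM, above the highest old value of 4.56 (edgeR BH 0.324). A single young control animal weighed on some of these values. Without the young animals numbered 2 at 48 h, a setting added after the data were seen, Fkbp5 differed by -0.17 in hemisphere and -0.39 in hippocampus, and AC154912.1 in hemisphere by -1.0. Under the same setting the hemisphere difference of AC154912.3 went from -1.05 to -0.62. Its hippocampus difference was -1.11 or lower under every alternative setting, and -1.858 to -1.034 with 1 library left out. The hemisphere difference of AC154912.5 ran from -1.465 to -1.133 over the settings in which it was tested. Some cell type markers were also lower in these old controls. Choroid plexus markers summed to 258 to 1210 CPM in young and 3.95 to 424 CPM in old hippocampus (median log2 difference -1.66 over the 2 of 4 tested). All 6 microglial markers had log2 differences below 0 in hemisphere (median -0.39, summed level 4340 to 6100 CPM in young and 2590 to 5130 CPM in old, 0 called) and 4 of 6 were above 0 in hippocampus. Their part in the members' differences was not tested.

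That young control, number 2, was the highest Fkbp5 animal of its group in both regions, at 61.9 CPM in hemisphere and 42 in hippocampus. The surgery animal numbered 2 was likewise highest in both regions, at 69.0 and 40.2 CPM. These 2 mice carry adjacent sort numbers, 82 and 81. In hemisphere the intronic models were also highest in both animals, at 21.9 and 24.9 CPM for AC154912.1, 11.8 and 13.7 for AC154912.3, and 6.66 and 6.14 for AC154912.5. The 8 genes whose group means most resembled those of Fkbp5 were chosen from means that include these animals. In hemisphere 6 of the 8 were highest in the control numbered 2 and 5 in the surgery animal numbered 2. Ccnd3, Jade2, Lifr and Ucp2, 4 of the 8, were highest in both. In hippocampus the counts were 4 and 6, with 3 (Ccnd3, Jade2 and Ppp1r21) in both. No share over all genes was set beside these counts, so nothing is read from them. Ccnd3, a cyclin, stood at 67.0 CPM against 35.1 to 49.6 in the other hemisphere controls and 84.6 against 23.1 to 67.8 in the other hemisphere surgery animals.

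After surgery at 6 h the age groups overlapped. The choice of members did not use this contrast, but it used these same libraries, each within its own age. Nothing is therefore read from the likeness of the ages or from the lack of calls. Fkbp5 differed between old and young animals by a log2 value of 0.23 ± 0.27 in hemisphere (95% interval -0.33 to 0.78) and -0.24 ± 0.30 in hippocampus (-0.85 to 0.37). The models ran from -0.05 (AC154912.1) to 0.30 (AC154912.3) in hemisphere and from -0.22 (AC154912.1) to -0.08 (AC154912.3) in hippocampus. The edgeR test called 0 of 4 members in each region, where 0.00784% of gene models were called in hemisphere and 0.0% in hippocampus.

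**Figure D4:**
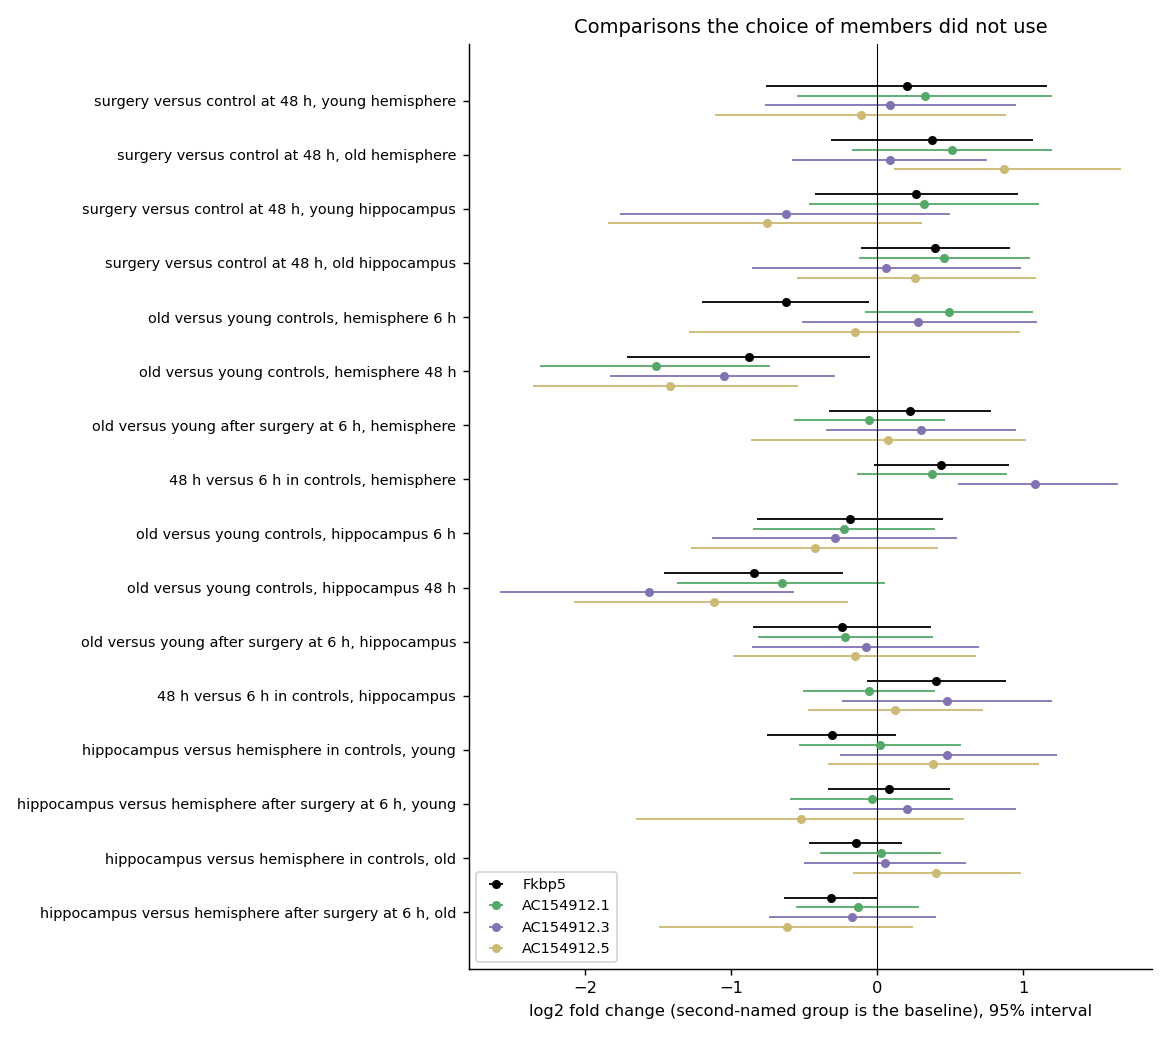
Log2 fold change with its 95% interval of each member in the comparisons that did not choose the members (surgery at 48 h, age, region and time), with the second-named group as the baseline. Comparisons that hold 6 h libraries share those libraries with the choice. The lowest estimate drawn is that of AC154912.3 for age in 48 h hippocampus controls, -1.56 with an interval from -2.58 to -0.57, and the interval of AC154912.3 for 48 h against 6 h in hemisphere controls is centred on 1.09.

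Hemisphere and hippocampus microglia of the same animal were compared with the animal as a block. The 6 h libraries in these comparisons were also used in the choice of members, each within its own region. In young controls Fkbp5 was -0.31 ± 0.22 on the log2 scale in hippocampus against hemisphere, with hippocampus higher in 3 of 8 animals. In old controls it was -0.15 ± 0.16, with hippocampus higher in 5 of 16. After surgery at 6 h it was 0.08 ± 0.20 in young animals (higher in 2 of 4) and -0.32 ± 0.15 in old ones (higher in 2 of 7; edgeR BH 0.78). The edgeR test called 0 of 4 members in each comparison, where 0.0%, 0.0617%, 0.0% and 0.00775% of all gene models were called. AC154912.5 was higher in hippocampus in 6 of 8 young and 11 of 16 old control animals, with log2 differences of 0.38 ± 0.35 and 0.40 ± 0.28, and lower after surgery in old animals (-0.62 ± 0.41, higher in 1 of 7).

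The level of Fkbp5 in one region of an animal followed that in its other region to different degrees. In young surgery animals at 6 h the order was the same in both regions, with animal 1 at 82.4 and 101.6 CPM, animal 2 at 66.8 and 64.5, animal 3 at 39.9 and 43.7, and animal 4 at 32.5 and 30.6. In young controls at 6 h animal 4, the highest in hemisphere at 28.2 CPM, was the lowest in hippocampus at 10.1. Correlations were computed for the 4 old groups on log2(CPM + 1). In old controls at 6 h Pearson's r was 0.864 over 8 animals (permutation p = 0.0101, BH over 4 groups 0.0404) and Spearman's rho 0.5 (permutation p = 0.216, BH 0.783). Without the 2 animals farthest from the hemisphere median r was 0.517, so the relation rests on those 2 animals, 1 of which was lowest in both regions at 8.23 and 3.9 CPM. Leaving out both ends narrows the range of values, and without the stepped libraries r was 0.946 (permutation p with BH adjustment 0.00872). In old surgery animals at 6 h r was 0.363 (7 animals, exact permutation p = 0.473, BH 0.473; rho 0.143) and -0.929 without the 2 farthest. At 48 h r was 0.349 in 8 old controls (permutation p = 0.394, BH 0.473; rho 0.262) and 0.327 in 9 old surgery animals (permutation p = 0.408, BH 0.473; rho 0.183), and without the 2 farthest animals it was 0.492 and 0.033. None of the 3 latter groups showed a relation past the threshold.

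**Figure D5:**
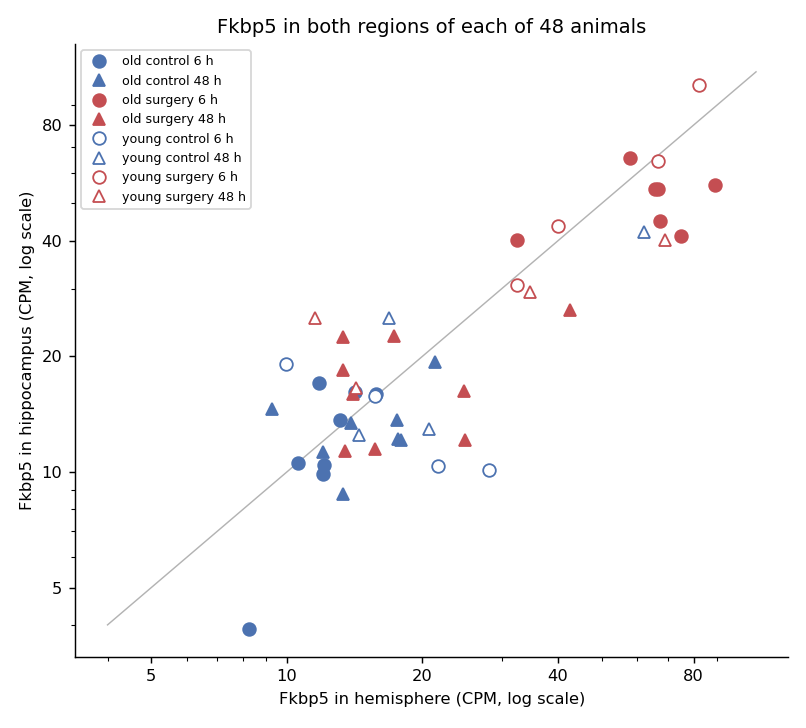
Fkbp5 in hippocampus against hemisphere for each of 48 animals (CPM, both axes log scale, grey line marks equal levels); circles are 6 h and triangles 48 h, filled symbols old and open symbols young, red surgery and blue control. The surgery animals at 6 h fill the upper right from 32.4 CPM in hemisphere and 30.6 in hippocampus, joined there by the young control and the young surgery animal of 48 h numbered 2.

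Controls at 48 h were compared with controls at 6 h, with time averaged over the ages. Fkbp5 differed by 0.44 ± 0.23 in hemisphere (19.7 ± 13.7 against 14.4 ± 5.53 CPM, 12 animals each; edgeR BH 0.42) and by 0.41 ± 0.23 in hippocampus (16.5 ± 9.09 against 12.7 ± 4.26; edgeR BH 0.37). AC154912.3 was higher at 48 h in hemisphere, at 4.31 ± 2.54 against 2.2 ± 0.864 CPM, with 8 of 12 libraries above all those of 6 h (log2 fold change 1.09 ± 0.27, edgeR BH 0.0451). The 6 h controls are also the lower arm of the comparison that chose the members, which favours a higher value at 48 h, so this difference is a description and nothing is read from its call. It was the 1 member called of 3 tested in hemisphere, where 0.68% of gene models were called higher, and 0 of 4 were called in hippocampus, where 0.299% were called higher. That call was lost in 17 of 24 runs that left out 1 library, with BH values of 0.0457 to 0.23 over the runs, and without the young animals numbered 2 (0.87, BH 0.23). It was lost as well without a filter on low counts (1.12, BH 0.203) and among animals sorted within the span of the young (1.10, BH 0.351). All 6 microglial markers were also above 0 for 48 h against 6 h in both regions (median 0.26 in hemisphere and 0.334 in hippocampus, 0 called). Their part in the members' differences was not tested. Animals of 6 h carry sort numbers 40 to 72 and those of 48 h begin at 75, so time and sorting order cannot be told apart.

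Genes of the glucocorticoid receptor and its chaperone cycle, the machinery that FKBP51 works in, were checked from a list of 19. None was called for surgery at 6 h in any of the 4 comparisons, with 16 tested in hemisphere and 17 in hippocampus. Their median log2 fold changes were -0.12 and 0.02 in young and old hemisphere and -0.12 and -0.13 in young and old hippocampus, beside medians over all genes of 0.004, -0.02, -0.02 and 0.02. Nr3c1, the glucocorticoid receptor, had group means between 13.0 and 26.8 CPM over the 16 groups. Fkbp4, the co-chaperone FKBP52 that competes with FKBP51, ran from 13.6 to 26.1 CPM. Hsp90aa1 and Hsp90ab1, the chaperones themselves, ran from 18.9 to 55.8 and from 76.8 to 156 CPM, and Ptges3, which encodes the co-chaperone p23, from 8.76 to 15.7. The highest group mean was 2.07 times the lowest for Nr3c1 and 5.32 times for Fkbp5, which was chosen for its surgery difference at 6 h.

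The signalling partners of FKBP51 (kinases of the Akt family, the Phlpp phosphatases, Chuk and Becn1) had 6 members tested in hemisphere and 7 in hippocampus, with 0 called for surgery at 6 h. Their median log2 fold changes were -0.11, 0.13, 0.14 and -0.08 in young and old hemisphere and then young and old hippocampus. Single partners ran from -0.379 to 1.165 in young and from -1.325 to 1.43 in old hemisphere (smallest edgeR BH in old 0.0595). In hippocampus they ran from -1.059 to 0.748 in young and from -0.62 to 0.286 in old animals. Neither this list nor the chaperone list held a called member in any comparison of surgery at 48 h, age or region.

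Time in controls, which cannot be told apart from sorting order, was the exception for the chaperone list. In hemisphere 5 of 17 tested members were higher at 48 h than at 6 h by edgeR's test with BH adjustment, where 0.68% of all gene models were called higher, with a list median of 0.26 beside -0.02 over all genes. Hspa8, the constitutive Hsp70, went from 162 ± 32.1 to 494 ± 147 CPM (log2 fold change 1.49 ± 0.15). Dnajb1, an Hsp40 co-chaperone, went from a mean of 38.6 to one of 115 CPM (1.48 ± 0.16). Hspa1a, the inducible Hsp70, went from 1.91 ± 1.3 to 13.1 ± 7.25 CPM (2.31 ± 0.34), Stip1 differed by 1.05 ± 0.24 and Dnaja1 by 1.24 ± 0.29. In hippocampus 2 of 17 were higher, Hspa8 (1.34 ± 0.14) and Dnajb1 (1.28 ± 0.19), where 0.299% of all gene models were, with a list median of 0.38 beside -0.02. Without the young animals numbered 2 the counts were 3 and 2, and among animals sorted within the span of the young 4 and 1. Leaving out 1 library at a time gave 3 to 6 called in hemisphere. A count of 3 came from leaving out any 1 of the 4 young controls of 6 h, the young controls 2 or 4 of 48 h, or the old control 2 of 48 h.

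Within groups, the members varied together. After the group mean of log2(CPM + 1) was taken from each of the 96 libraries, Fkbp5 had a Pearson r of 0.47 with AC154912.1, 0.485 with AC154912.3 and 0.41 with AC154912.5. The models had r values of 0.386 to 0.463 with each other. The log2 library total had r values of 0.035 to 0.18 with the 4 members. Among the neighbours E230001N04Rik had the highest r with Fkbp5, 0.318, and the others ran from -0.137 to 0.094. These are descriptions across libraries that share animals between regions.

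The genes whose group means followed those of Fkbp5 most closely were sought among 3082 genes with a mean log2 level of at least 4. Over the 16 groups, which share animals between regions, the highest Pearson r values were those of Lifr (0.97), the receptor of leukemia inhibitory factor, Ppp1r21 (0.969) and Ccnd3 (0.96), which encodes cyclin D3. B4galt1 (0.937), a galactosyltransferase, Jade2 (0.932), Ucp2 (0.929), a mitochondrial carrier, Dst (0.922), which encodes the cytoskeletal linker dystonin, and Abhd15 (0.904) completed the 8. AC154912.1, AC154912.3 and AC154912.5 had r values of 0.894, 0.921 and 0.851 on the same scale, and 0.575, 0.705 and 0.656 over the 8 control groups. The members were chosen for their surgery difference at 6 h, which the 16 groups include, so nothing is read from their r values. With Spearman's rho 5 of the 8 were among the top 8, and over the 8 control groups alone 0 were. Within groups the 8 genes had r values of 0.058 (Lifr) to 0.545 (Ccnd3) with Fkbp5.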

How the data were processed

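Smart-seq2 libraries of 1000 sorted microglia each were compared over 96 libraries of 48 mice, grouped by the labels' age, treatment, time and region. The deposited files hold whole-number estimated counts (expected counts) for each Ensembl gene model, in 1 unpooled column per library by their headers. Build mm10, DESeq2 1.36.0 and R 4.2.1 are named in the submitters' processing notes. The aligner, counter and strand setting were not given in the sources used here. Values were used as deposited. The tests were planned for raw counts, and edgeR was kept for these estimated ones. In 6 libraries values of 1 made up 4.11% to 24.7% of values from 1 to 3 (stepped libraries). Of 54532 identifiers, 54495 matched GENCODE M21, and 0 of 4560 library pairs were identical.

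Tests were edgeR 4.0.16's quasi-likelihood F-test (R 4.3.3) with TMM scaling, robust dispersion and filterByExpr at a minimum count of 10. Calls are at a Benjamini-Hochberg threshold of 0.05 over all genes tested. Each region and time was fitted as 4 groups, regions with the animal as a block, and time over controls of a region. CPM values are TMM-scaled over all 96 libraries, and correlations used a pseudocount of 1. A ratio needed an Fkbp5 count of at least 10. Intervals are at 95%. The test was checked on simulated counts. Alternatives were DESeq2 1.42.0, RLE scaling, no filter, other sets of libraries, a summed locus and a replicate block.

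The members and lists were chosen with earlier results of these data known. Named genes are the 4 members, called members of 2 pathway lists (receptor and chaperone cycle, signalling partners) and of the models within 200 kb, Nr3c1, Fkbp4, Hsp90aa1, Hsp90ab1 and Ptges3, and the 8 genes most like Fkbp5. E230001N04Rik falls outside this rule and was named after its values were seen. Replicates are separate animals by sort number. Promoter sequence is from RefSeq (GRCm38.p6), and protein sequences were not used here. A further gene list and 1 marker are not reported here.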

Additional observations from a re-analysis of the deposited data

Results flagged for a closer look

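Within groups of 4 to 9 animals, single libraries stood far from the rest in 6 of the 64 combinations of member and group checked, by the gap to the nearest library over the whole range (Dixon's test at 95%). Chance alone gives about 1 in 20. Fkbp5 stood at 61.9 CPM in young control hemisphere at 48 h, animal 2, with the next library at 20.7, and at 42.5 CPM in old surgery hemisphere at 48 h, animal 1, with the next at 24.8. AC154912.3 stood at 11.8 CPM in the same young control library (next 5.51) and at 7.35 CPM in old surgery hippocampus at 48 h, animal 1 (next 3.69). This old animal is the one with the high Fkbp5 in hemisphere, and it was also highest for Fkbp5 in hippocampus, at 26.5 CPM. In young surgery animals at 6 h AC154912.3 stood low in hemisphere in animal 2, at 7.27 CPM (next 9.32), and high in hippocampus in animal 1, at 14.8 CPM (next 9.54). Of 8 tests at 48 h of whether the surgery effect of a member differed between old and young animals, 0 passed the threshold.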

How the results depend on the processing

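The members rested on few estimated counts and each young group on 4 animals, so small differences were not resolved, and the parts of depth and of spread between animals were not told apart. Fkbp5 was called in none of 488 alternative runs over the 16 comparisons that did not choose it, the smallest BH value being 0.138, and 6 of these runs reversed its sign. Some of these comparisons share 6 h libraries with the choice. The 6 h log2 fold changes stayed above 0 in every run. Of these, AC154912.1 moved to 1.57 in old hemisphere and 0.57 in old hippocampus among animals sorted within the span of the young, and AC154912.3 to 2.07 in young hippocampus without the stepped libraries. The cause was not tested for any change below, except where fewer libraries or genes entered by construction.

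Leaving out each replicate gave Fkbp5 log2 differences of -0.007 to 0.126 for region in young surgery animals at 6 h, -0.468 to 0.114 for age after surgery in hippocampus, -0.313 to 0.021 for age in hippocampus controls at 6 h (0.037 within the span of the young) and -0.49 to 0.914 for surgery at 48 h in young hemisphere. The ratio's age difference ran from 0.214 to 0.478 in hemisphere at 6 h (smallest BH 0.0484) and from -0.147 to 0.185 in hippocampus at 6 h (-0.147 with an Fkbp5 count of at least 20). The correlation between regions was 0.517, -0.929, 0.492 and 0.033 without the 2 farthest animals of old control 6 h, old surgery 6 h, old control 48 h and old surgery 48 h, and -0.344 without the stepped libraries in old surgery 6 h. Of the 8 genes most like Fkbp5, 5 were among the top 8 by Spearman's rho and 0 over control groups only.

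The intronic models changed sign in the following runs. Without the stepped libraries AC154912.5 stood at 0.038 for age in hemisphere controls at 6 h, AC154912.1 at 0.024 and AC154912.3 at 0.318 for age in hippocampus controls at 6 h, AC154912.1 at 0.104 for time in hippocampus and -0.082 for region in young controls, and AC154912.3 at -0.078 for region in old controls. Within the span of the young AC154912.3 stood at -0.534 for surgery at 48 h in old hippocampus, and AC154912.1 at 0.05 for age after surgery in hemisphere and 0.152 for age in hippocampus controls at 6 h. AC154912.3 stood at -0.05 for surgery at 48 h in young hemisphere without the young animals numbered 2, and AC154912.1 at -0.025 for region in young controls with no filter. Leaving out each replicate gave, for AC154912.1, -0.162 to 0.029 for time in hippocampus, -0.268 to 0.058 for region in young surgery, -0.094 to 0.084 in old and -0.094 to 0.121 in young controls, -0.197 to 0.059 and -0.446 to 0.173 for age after surgery in hemisphere and hippocampus, and -0.083 to 0.836 and -0.029 to 0.56 for surgery at 48 h in young hemisphere and hippocampus. For AC154912.3 it gave -0.403 to 0.038 for region in old surgery, -0.103 to 0.196 in old controls, -0.302 to 0.104 for age after surgery in hippocampus, -0.486 to 0.048 for age in hippocampus controls at 6 h, and -0.019 to 0.165, -0.2 to 0.22 and -0.488 to 0.517 for surgery at 48 h in old hemisphere, old hippocampus and young hemisphere. For AC154912.5 it gave -0.066 to 0.336 and -0.428 to 0.172 for age after surgery in hemisphere and hippocampus, -0.325 to 0.044 for age in hemisphere controls at 6 h and -0.479 to 0.234 for surgery at 48 h in young hemisphere.

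Of 46 same-numbered pairs, 11 had a correlation of deviations over 0.1 (range -0.226 to 0.256), and 9 libraries correlated best with their own number. These values cannot exclude that a replicate number pairs animals between groups. At 6 h the animals numbered 1 carry adjacent sort numbers, 40 to 43, and those numbered 2 carry 44 to 47. With the replicate number as a block, called gene models went from 8 to 2 and from 43 to 29 for surgery at 6 h in young and old hemisphere, from 12 to 7 in old hippocampus, and from 10 to 0, 11 to 1, 8 to 2 and 10 to 0 for age in controls of hemisphere at 6 h and 48 h and of hippocampus at 6 h and 48 h. AC154912.3 stood at -0.035 for surgery at 48 h in old hippocampus and AC154912.5 at 0.073 for age in hemisphere controls at 6 h under the block. No call of Fkbp5 outside the 6 h surgery comparisons changed under it. Without the animal as a block AC154912.1 stood at -0.041 and 0.047 for region in young controls and young surgery animals. DESeq2 called 26, 112, 34 and 64 gene models for surgery at 6 h in young hemisphere, old hemisphere, young hippocampus and old hippocampus, against 8, 43, 5 and 12 by edgeR. It called 160 and 233 for time in hemisphere and hippocampus against 92 and 47, and 47, 21, 58 and 22 for age in controls against 10, 11, 8 and 10. For age after surgery in hemisphere and hippocampus DESeq2 called 13 and 15 against 1 and 0. For region in young controls, old controls and young surgery animals the counts went from 0, 9 and 0 to 98, 113 and 38 with no filter on low counts, and that of old surgery animals went up likewise. Among animals sorted within the span of the young, counts fell from 43 to 0 for surgery at 6 h in old hemisphere, from 92 to 22 for time in hemisphere and from 47 to 1 for time in hippocampus, with fewer libraries in the fit.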
